A study of Rattus norvegicus with 12 samples.

Results

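The genes described here are the nuclear-encoded subunits of the mitochondrial respiratory chain and of ATP synthase, followed across heart and blood of rats given amiodarone or vehicle. They were chosen by name: every non-control probe whose gene name starts with Nduf, Uqcr, Atp5 or Cox followed by 4 to 8, or is Sdha, Sdhb, Sdhc, Sdhd, Cyc1 or Cycs. This gave 105 of 41012 probes and 83 of 35287 gene names. By complex these were 34 names of complex I, 4 of complex II, 8 of complex III, 15 of complex IV, 15 of complex V, 1 of cytochrome c, and 6 that are no subunits (Ndufaf1, Ndufaf2, Cox4nb, Cox7a2l, Atp5s and Atp5sl). The rule uses no measured value. Of the 83 genes, 79 had a probe well above background, by the scanner software's own test, on all 3 arrays of at least 1 group; Ndufaf2, Uqcrq, Cox8c and Cox6b2 did not.

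All 12 arrays carry RNA of male Sprague-Dawley (CD) rats, 290 to 320 g in weight and 10 weeks old at the start of dosing. The characteristics of each sample give an age of 11 weeks. The 4 groups of 3 pools were left ventricle and whole blood of rats dosed with amiodarone by mouth at 300 mg per kg per day for 10 days, and left ventricle and whole blood of controls given the vehicle, 1% methylcellulose. Amiodarone is an antiarrhythmic drug. Each pool was hybridised once to a 1-colour Agilent rat array; how many rats a pool holds, and whether heart and blood pools share rats, was not given in the labels, so p-values measure the spread between pools. Heart RNA was extracted with an RNeasy kit and blood RNA with a PAXgene kit, on separate slides, so that tissue, kit and slide cannot be told apart.

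The respiratory chain passes electrons from NADH through complex I, or from succinate through complex II, to coenzyme Q, complex III, cytochrome c and complex IV, which reduces oxygen. Complexes I, III and IV pump protons across the inner mitochondrial membrane, and ATP synthase, also called complex V, uses their return to make ATP. Heart muscle is packed with mitochondria, whereas mature mammalian red cells have none, and several subunits of complex IV exist in a heart and muscle form and a general form encoded by separate genes.

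The tissue labels were borne out by markers. All 17 cardiomyocyte markers were measured in the ventricle and took 4.05 to 4.67% of the summed probe signal in vehicle pools, against 0.0025 to 0.00345% in vehicle blood. Between 21233 and 25032 of 43379 spots were well above background on heart arrays, 14459 to 15548 on vehicle blood arrays and 20625 to 21245 on amiodarone blood arrays. The 75th percentile of the signal was 20.9 to 26.2 units in vehicle blood and 56.8 to 87.5 in amiodarone blood. Levels below are log2 signal minus that percentile of the same array, so in blood the direction of a change depends on the scaling and is given relative to all genes tested as well.

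Complex IV has paired forms of some subunits whose genes differed between the tissues in opposite directions, and their probes are shown because the tissue comparison rests on each probe reading 1 form only. The 60-base probes, as they stand in the scanner files and with the rn4 positions given there, were:
Cox4i1: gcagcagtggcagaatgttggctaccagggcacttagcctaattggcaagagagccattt
Cox4i2: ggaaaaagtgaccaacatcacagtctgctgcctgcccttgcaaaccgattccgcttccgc
Cox6a1: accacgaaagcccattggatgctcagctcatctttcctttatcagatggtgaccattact
Cox6a2: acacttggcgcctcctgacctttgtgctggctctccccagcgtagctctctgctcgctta
Cox8a: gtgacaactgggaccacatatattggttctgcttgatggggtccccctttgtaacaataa
Cox8b: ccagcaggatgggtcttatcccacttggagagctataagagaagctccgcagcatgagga
They lie at chr19:51024035-51025064 (Cox4i1, whose 60 bases span 1030 bases of genome), chr3:143114063-143114122 (Cox4i2), chr12:42533025-42533084 (Cox6a1), chr1:187464932-187464991 (Cox6a2), chr1:209886158-209886217 (Cox8a) and chr1:201057360-201057419 (Cox8b). The longest run of bases that the 2 probes of a pair share on the same strand was 4 for Cox4i1 and Cox4i2, 5 for Cox6a1 and Cox6a2, and 6 for Cox8a and Cox8b. Many respiratory chain genes have processed pseudogene copies in rodent genomes, and signal from such copies cannot be told apart from that of the gene.

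In vehicle pools, 72 of 79 members were higher in ventricle than in blood and 3 were lower (limma on all 12 arrays, two-sided, Benjamini-Hochberg adjusted p below 0.05). Over all 18505 genes tested 81.9% were called, 46.5% higher and 35.5% lower. The ranges of heart and blood pools did not overlap for 76 of the 79 members, against 84% of all genes. The median log2 difference was 3.27 over the members and 0.42 over all genes. Members took 8.14 to 8.55% of summed probe signal in vehicle heart and 0.995 to 1.3% in vehicle blood. In bulk samples, fewer cells of a type and less RNA per cell cannot be told apart.

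The medians of complexes II, I and III stood farthest apart between the tissues and that of complex IV least. The median heart minus blood difference was 4.53 for the 4 genes of complex II, 4.07 for the 34 of complex I, 4.02 for the 7 of complex III, 2.92 for the 15 of complex V and 2.04 for the 13 of complex IV. Array medians of complex I were 7.38 to 7.56 in vehicle heart and 3.18 to 3.66 in vehicle blood. Those of complex IV were 7.88 to 8.16 and 5.19 to 5.77, so heart and blood arrays did not overlap for either complex.

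**Figure D1:**
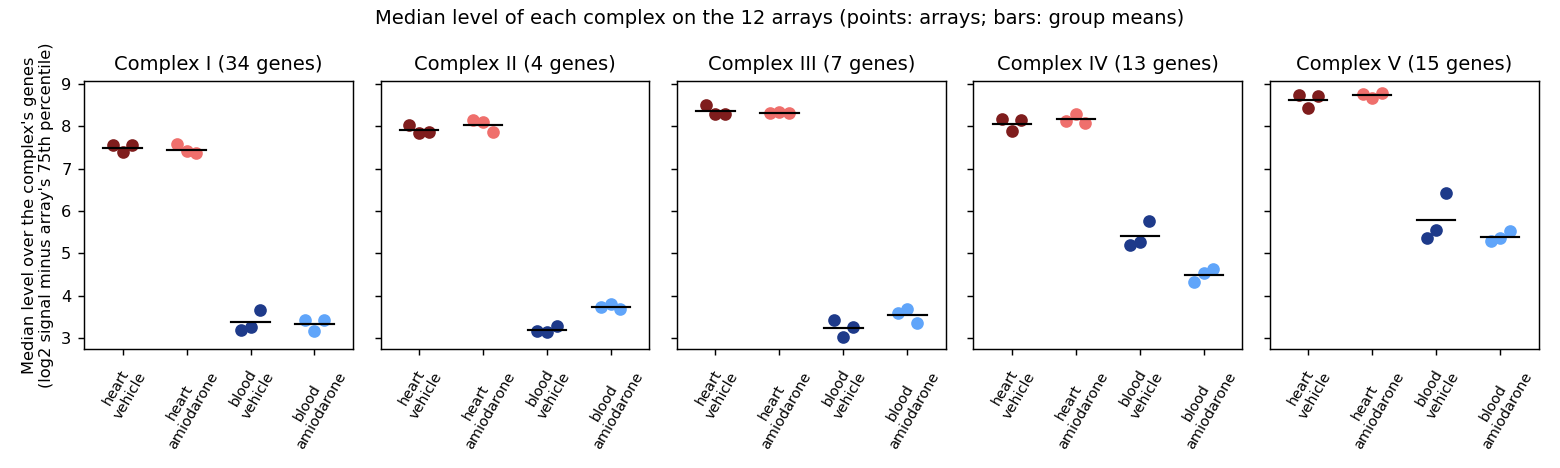
Median log2 level over the measured genes of each complex (y axis, log2 signal minus the array's 75th percentile) on each of the 12 arrays, by group (x axis); points are arrays and bars are group means. Heart arrays lie above blood arrays in every complex; in blood, complex IV is lower and complex II higher on all 3 amiodarone arrays than on all 3 vehicle arrays.

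Complex I oxidises NADH. Its members with the largest differences were Ndufv3l, an accessory subunit of the NADH-oxidising module (6.12 ± 0.18, SE), and Ndufab1, the mitochondrial acyl carrier protein (5.90 ± 0.18). Ndufv3l stood at 7.30, 7.11 and 7.16 in the 3 vehicle heart pools and at 0.88, 1.08 and 1.24 in the 3 vehicle blood pools. Of the core subunits, the flavin-binding Ndufv1 differed by 3.27 ± 0.19 and the iron-sulfur subunit Ndufs1 by 5.61 ± 0.48, the last with 1 of 3 vehicle blood arrays well above background. Both passed the test, with adjusted p of 1.04e-08 and 3.90e-07. Ndufs4 was on none of the vehicle blood arrays well above background, so it was at least 4.26-fold higher in heart, the bound being set by the lowest signal that was well above background on each array.

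Ndufa1, a small membrane accessory subunit, was the 1 member of complex I with a negative difference. It was 8.21, 7.98 and 7.87 in vehicle heart and 8.03, 8.37 and 8.94 in vehicle blood, and these ranges overlap (difference -0.42 ± 0.25, adjusted p 0.134). It was positive and past the test with normexp (1.03), spike-in (1.76) and no scaling (2.09) and in the authors' table (1.44), and negative and past it with the percentile taken over detected probes (-0.51, adjusted p 0.0466). The other 33 members of complex I were higher in heart by 1.41 (Ndufa12) to 6.12.

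Complex II, succinate dehydrogenase, also works in the citric acid cycle, and its 4 genes lay between 4.34 and 4.85. The flavoprotein Sdha, the iron-sulfur protein Sdhb and the membrane anchors Sdhc and Sdhd were higher in heart by 4.45 ± 0.19, 4.60 ± 0.15, 4.34 ± 0.20 and 4.85 ± 0.15. Sdha was 8.68, 8.41 and 8.83 in vehicle heart against 4.06, 3.99 and 4.51 in vehicle blood, which is 21.9-fold.

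In complex III, which passes electrons from coenzyme Q to cytochrome c, 6 of 7 members were higher in heart. The core protein Uqcrc2 differed by 5.28 ± 0.19, the Rieske iron-sulfur protein Uqcrfs1 by 5.22 ± 0.18, cytochrome c1 (Cyc1) by 4.98 ± 0.15 and the core protein Uqcrc1 by 4.02 ± 0.23. Uqcrh, the acidic hinge protein, was the exception: 9.41, 9.09 and 9.35 in vehicle heart against 9.01, 9.25 and 9.84 in vehicle blood (difference -0.08 ± 0.22, adjusted p 0.735). It was positive and past the test with normexp (1.36), quantile (0.94), spike-in (2.09) and no scaling (2.43) and in the authors' table (1.84). Cytochrome c itself (Cycs) was higher in heart by 4.94 ± 0.19.

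Complex IV, cytochrome c oxidase, was split by isoform. Cox8b, the heart and muscle form of subunit 8 in rodents, was 9.57, 9.29 and 9.53 in vehicle heart and was well above background on none of the vehicle blood arrays, which makes it at least 1705-fold higher in heart (measured means 9.46 and -2.55, adjusted p 2.26e-10). Its general partner Cox8a was 7.91, 7.52 and 7.81 in heart and 7.96, 8.23 and 8.89 in blood, without overlap and lower in heart by 0.61 ± 0.23 (adjusted p 0.029); this sign turned under spike-in, quantile, normexp and no scaling and in the authors' table.

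The heart and muscle form Cox6a2 was 8.16, 7.88 and 8.24 in vehicle heart and 6.12, 6.21 and 5.83 in vehicle blood, a difference of 2.04 ± 0.20 (adjusted p 1.06e-06). It was well above background on all 3 vehicle blood arrays, unlike Cox8b. The general form Cox6a1 went the other way, with 9.09, 8.82 and 8.91 in heart and 10.26, 10.49 and 11.46 in blood (difference -1.80 ± 0.28, adjusted p 7.53e-05), a sign that turned under spike-in and no scaling and in the authors' table.

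Cox4i2, the form of subunit 4 known from lung and from low oxygen, was 2.43, 2.16 and 2.52 in vehicle heart and 5.42, 5.62 and 4.84 in vehicle blood. It was lower in heart by 2.92 on the log2 scale, or 7.57-fold, with adjusted p 1.63e-07. The sign was the same under each scaling tried, but the difference did not pass the test with spike-in scaling (-0.74, adjusted p 0.117) or no scaling (-0.41, adjusted p 0.247). The general form Cox4i1 was higher in heart by 1.93 ± 0.18. Cox7c had no vehicle blood array well above background and was at least 15.7-fold higher in heart. Cox6c1 (0.58 ± 0.35, adjusted p 0.148), a name that the current RefSeq table gives as a synonym of a Cox6c pseudogene, was well above background on no vehicle blood array and did not pass the test.

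Within an array, the difference between the 2 probes of a pair is the same under any scaling by 1 number per array. Quantile scaling, normexp and the authors' table can change it, and pair differences were not computed with these. Cox8b minus Cox8a was 1.66, 1.77 and 1.72 in vehicle heart and -9.15, -11.38 and -12.19 in vehicle blood, where the Cox8b signal is only an upper limit. Cox6a2 minus Cox6a1 was -0.92, -0.94 and -0.68 in heart and -4.14, -4.28 and -5.63 in blood. Cox4i2 minus Cox4i1 was -5.02, -5.02 and -4.78 in heart and 0.23, 0.35 and -0.86 in blood. Heart and blood did not overlap for any of the 3 pairs, and the exact permutation test, two-sided, gave 0.1 for each, the smallest p that 3 arrays against 3 allow. In both blood groups the pool on the second slide had the lowest value of Cox4i2 minus Cox4i1 and of Cox6a2 minus Cox6a1.

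**Figure D2:**
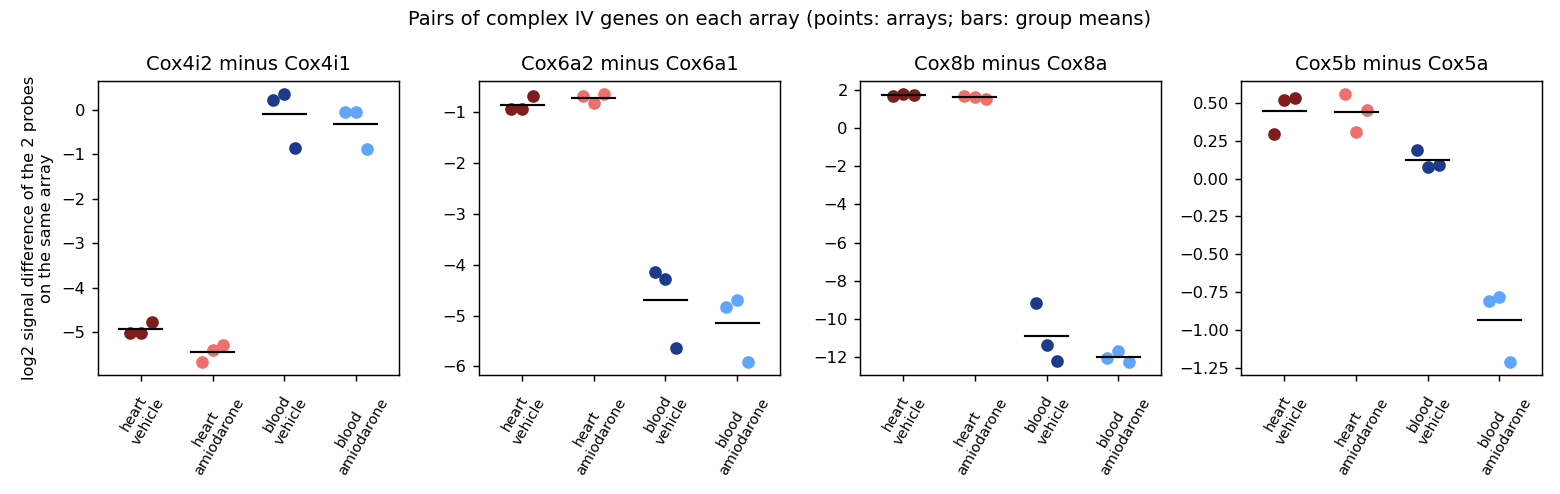
Log2 signal of one probe minus the other on the same array (y axis) for 4 pairs of complex IV genes in the 4 groups (x axis); points are arrays and bars are group means. Cox6a2 and Cox8b stand higher relative to Cox6a1 and Cox8a in ventricle and Cox4i2 higher relative to Cox4i1 in blood, while Cox5b minus Cox5a separates amiodarone blood, at -0.79 and below, from vehicle blood, at 0.08 and above.

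In complex V all 15 members were higher in heart. The largest difference was that of the gamma subunit Atp5c1 (5.38 ± 0.15) and the smallest that of the d subunit Atp5h (1.47 ± 0.26). The catalytic core was uneven: the alpha subunit Atp5a1 differed by 5.07 ± 0.26 and the beta subunit Atp5b by 2.28 ± 0.21. The 3 genes Atp5g1, Atp5g2 and Atp5g3 encode the same mature c subunit of the rotor and differed by 3.42 ± 0.22, 2.48 ± 0.20 and 5.22 ± 0.15.

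Of the members that are no subunits, the complex I assembly factor Ndufaf1 was at least 3.99-fold higher in heart. Atp5s, also called factor B, differed by 2.40 ± 0.36, Atp5sl by 2.13 ± 0.17 and Cox4nb by 1.57 ± 0.17. Cox7a2l, known for its part in respiratory supercomplexes, was 4.72 to 4.84 in vehicle heart and 4.58 to 4.86 in vehicle blood and did not pass the test (0.07 ± 0.14, adjusted p 0.662). Among other mitochondrial genes, 18 of 18 tested genes of the citric acid cycle, 49 of 50 of the mitochondrial ribosome and 16 of 17 assembly factors were higher in heart, with medians of 4.69, 2.52 and 2.77. Of all genes 46.5% were called higher in heart.

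**Figure D3:**
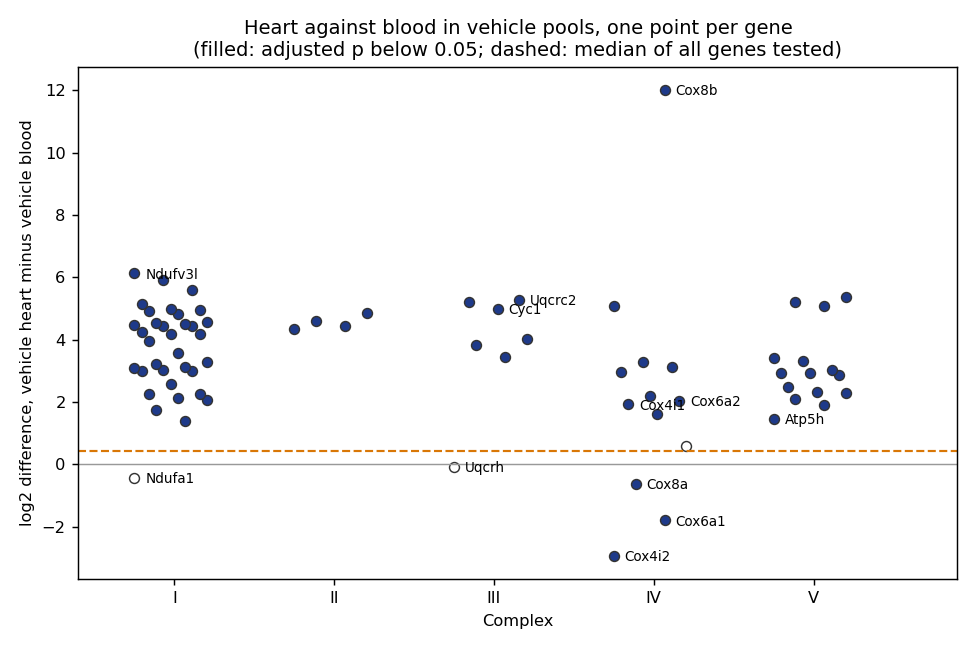
Log2 difference between vehicle heart and vehicle blood (y axis) for each measured gene of complexes I to V (x axis); filled points passed an adjusted p of 0.05 and the dashed line is the median of all genes tested, 0.42. Complex IV spans -2.92 (Cox4i2) to 12.01 (Cox8b, an estimate from a probe not above background in blood), while complexes II and V lie wholly above the dashed line.

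In the ventricle, amiodarone left no member past the test. None of 79 was called by limma on the 6 heart arrays (adjusted p below 0.05), against 8.61% of all 17460 genes tested, and 4 members had an unadjusted p below 0.05, of which 2 were higher and 2 lower, against 25.2% of all genes at that unadjusted p. Over all genes 4.48% were called higher and 4.13% lower after adjustment. The median log2 difference, amiodarone minus vehicle, was 0.04 over the members and 0.03 over all genes. By complex it was 0.01 for I, 0.13 for II, -0.03 for III, 0.09 for IV and 0.07 for V. Members took 7.82 to 8.50% of the summed signal in amiodarone heart.

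The smallest adjusted p was 0.159, for Cox4nb, which was 3.24, 3.11 and 3.05 in vehicle heart and 3.39, 3.61 and 3.49 in amiodarone heart (0.36 ± 0.14). Cox4nb lies beside Cox4i1 and encodes a protein of the endoplasmic reticulum. Cytochrome c1 (Cyc1) was 7.42, 7.27 and 7.49 in vehicle pools and 6.95, 7.07 and 7.14 in amiodarone pools, apart but with an adjusted p of 0.182 (-0.34 ± 0.14). Atp5s (0.37 ± 0.15, adjusted p 0.179), Ndufs8 (-0.31 ± 0.13, 0.191) and Ndufa2 (0.32 ± 0.15, 0.249) were also apart, as were Atp5c1 and Cox6a2. These 7 of 79 members, 8.86%, compare with 32.5% of all genes whose groups did not overlap.

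No core subunit was called between the heart groups. The difference was -0.33 ± 0.18 for Ndufs1, -0.25 ± 0.19 for Ndufv1, 0.20 ± 0.15 for Sdha and 0.14 ± 0.15 for Sdhb. It was -0.30 ± 0.23 for Uqcrc1, 0.01 ± 0.16 for Uqcrfs1 and -0.12 ± 0.15 for Cycs, the last on another probe than in blood. The difference was -0.08 ± 0.24 for Atp5a1 and -0.08 ± 0.21 for Atp5b. In complex IV it was 0.29 ± 0.15 for Cox6a2, 0.16 ± 0.14 for Cox6a1, 0.08 ± 0.14 for Cox8b, 0.17 ± 0.15 for Cox8a, 0.15 ± 0.14 for Cox4i1 and -0.37 ± 0.17 for Cox4i2. Atp5g1 was higher by 0.39 ± 0.21, with 8.74, 8.11 and 8.50 in vehicle and 8.61, 9.07 and 8.84 in amiodarone pools, which overlap. Within an array, Cox4i2 minus Cox4i1 was -5.02, -5.02 and -4.78 in vehicle and -5.67, -5.41 and -5.30 in amiodarone heart. These were apart, as was Atp5g1 minus Atp5g2 (higher by 0.19), each with an exact permutation p of 0.1, the smallest possible. Cox6a2 minus Cox6a1, Cox8b minus Cox8a, Cox5b minus Cox5a and Atp5g1 minus Atp5g3 overlapped between the heart groups. With 3 pools a group, differences of 0.36 ± 0.14 (Cox4nb), -0.34 ± 0.14 (Cyc1) and 0.39 ± 0.21 (Atp5g1) did not pass the test. Nor did the largest, -0.75 ± 0.41 for the dim Cox6c1. What can be called depends on the spread of each gene, so a member not called may still have changed. Between the heart groups 6 of 11 red cell markers and 5 of 8 fibroblast markers fell (medians -0.79 and -1.28), against 4.13% of all genes. Of 17 cardiomyocyte markers 1 was called, against 8.61% of all genes. The part of these markers in the values above was not tested. Among other mitochondrial genes in heart, 1 of 18 tested citric acid cycle genes was called higher and 1 lower, against 4.48 and 4.13% of all genes. The median of 50 genes of the mitochondrial ribosome was -0.01. With array weights, which count noisier arrays less, 4 members passed, against 24.5% of all genes: Atp5g1, Atp5s and Cox4nb higher, Cyc1 lower.

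In blood the complexes changed by different amounts. The median level of complex IV stood 2.03, 2.14 and 2.50 above that of complex II on the vehicle blood arrays. On the amiodarone blood arrays it stood 0.60, 0.75 and 0.95 above it. With amiodarone 32 of 74 members, 43.2%, were called against 68.1% of all 15649 genes tested, 12 of them higher and 20 lower. The median log2 difference over the members was -0.11 and over all genes 0.45, so the members lay 0.56 below the run of genes. With the strict filter on dim probes they lay 0.29 below it. With no filter, which tested 35250 genes with a median of -1.07, they lay 0.90 above it and complex IV at -0.04. With the filter used here, and relative to the median of 0.45, complex IV lay lowest, at -1.59, followed by V at -0.69, I at -0.54 and III at -0.28, while complex II lay at 0.19. Complexes I and III lay at -0.12 and -0.01 with normexp, at -0.16 and -0.02 with the strict filter, and at -0.61 and -0.38 with quantile scaling. The relative positions with the filter used here are the same under any scaling by 1 number per array. The counts by direction are not: 22 members were called higher and 11 lower with scaling to the array median, 3 and 23 in the authors' table, and 45 and 56 higher with none lower after spike-in scaling and with no scaling. Of all genes, 72.4% were called with array median scaling, 57.6% in the authors' table, 68% with spike-in scaling and 77% with no scaling. The median of all genes ranged from 0.08 to 2.04 over these settings and normexp.

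The rises of complex II covered all 4 genes, against 41.2% of all genes called higher. Sdha, the catalytic flavoprotein, was 4.06, 3.99 and 4.51 in vehicle blood and 5.46, 5.12 and 5.18 in amiodarone blood, a rise of 1.07 ± 0.21 or 2.09-fold (adjusted p 0.00434). Sdhb was 3.11, 3.31 and 3.47 against 3.84, 3.82 and 3.83 (0.54 ± 0.17, adjusted p 0.0267). Sdhc rose by 0.74 ± 0.23 and Sdhd by 0.55 ± 0.17, and in none of the 4 genes did the groups overlap, which held for 74.1% of all genes tested. Relative to the median of all genes these rises amounted to 0.08 to 0.61. The 3 smaller ones were past the threshold in only some of the fits without 1 pool, where 1 to 4 of the 4 genes were called.

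In complex IV, 7 of 10 genes fell and none was called higher, against 26.9% of all genes called lower; with spike-in or no scaling none of the 7 was called lower, and their places below the median of all genes stayed. Cox6a2, the heart and muscle form, fell most: 6.12, 6.21 and 5.83 in vehicle blood, 4.32, 4.54 and 3.86 in amiodarone blood (-1.81 ± 0.23, 3.51-fold lower, adjusted p 0.00114). Cox6a1 was 10.26, 10.49 and 11.46 against 9.16, 9.23 and 9.77 (-1.35 ± 0.34, adjusted p 0.0112). In each case every amiodarone pool was below every vehicle pool.

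Both forms of subunit 4 fell in blood. Cox4i2 was 5.42, 5.62 and 4.84 in vehicle and 4.05, 4.24 and 3.69 in amiodarone pools (-1.30 ± 0.26, adjusted p 0.00461), and Cox4i1 was 5.19, 5.27 and 5.69 against 4.10, 4.30 and 4.57 (-1.06 ± 0.22, adjusted p 0.00482). Cox7a2, the general form of subunit 7a, was 6.53, 6.82 and 7.71 against 5.37, 5.27 and 5.89 (-1.51 ± 0.34, adjusted p 0.00672). Cox8a fell by 1.17 and Cox7b by 1.11 on the log2 scale. In each fit without 1 blood pool, 6 or 7 genes of complex IV were called lower.

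Cox5a and Cox5b, which are different subunits despite their names, parted. Cox5a was 4.79, 5.09 and 5.68 in vehicle blood and 5.92, 5.53 and 6.35 in amiodarone blood (0.74 ± 0.30, adjusted p 0.0593), and Cox5b was 4.98, 5.17 and 5.77 against 5.11, 4.74 and 5.14 (-0.31 ± 0.25, adjusted p 0.294). Neither passed the test, and in each the groups overlap. Within an array, Cox5b minus Cox5a was 0.19, 0.08 and 0.09 in vehicle blood and -0.81, -0.79 and -1.21 in amiodarone blood, apart, with an exact permutation p of 0.1, the smallest possible. Cox6c (-0.20 ± 0.27) was the third member of complex IV not called.

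**Figure D4:**
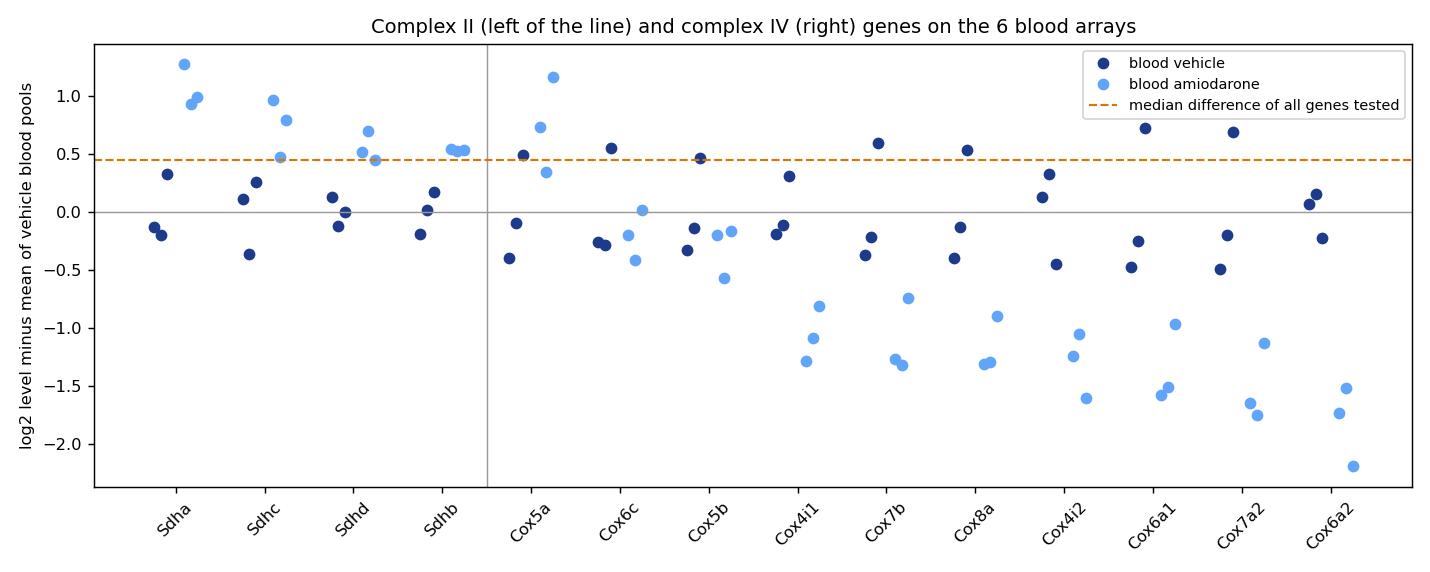
Log2 level of each complex II and complex IV gene on the 6 blood arrays minus its mean in vehicle blood (y axis), by gene (x axis); the dashed line is the median difference of all genes tested, 0.45. Amiodarone points of the 4 Sdh genes lie above all their vehicle points, and those of 7 complex IV genes, from Cox4i1 to Cox6a2, lie below theirs.

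Complex I was mixed in blood, with 4 genes higher and 8 lower of 33 tested, which is 12.1 and 24.2% against 41.2 and 26.9% of all genes. Ndufa12, an accessory subunit, fell most: 7.35, 7.58 and 8.09 in vehicle and 5.89, 5.86 and 6.51 in amiodarone blood (-1.58 ± 0.27, 3.00-fold, adjusted p 0.00264). The other accessory subunits that fell were Ndufa11, Ndufb2, Ndufa1, Ndufs6, Ndufb11 and Ndufb8, by 0.73 to 1.09. The core subunit Ndufv1 fell by 0.46 (adjusted p 0.0498), a call that held in 1 of 6 fits without 1 pool. The core subunits Ndufs7 and Ndufs8 and the subunit Ndufa4 were among the genes called higher. They lay at 0.18, 0.23 and 0.09 relative to the median of all genes, and Ndufa12 at -2.04. Ndufa4 is counted here by its name and is now regarded as a subunit of complex IV.

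Of the probes for Ndufs8, 2 share 34 bases and disagreed in blood. The probe used here stood at -0.48, -0.37 and 0.35 in vehicle and 0.63, 0.51 and 0.42 in amiodarone blood (0.69 ± 0.25, adjusted p 0.0421). The other stood at 2.70, -1.16 and -0.67 in vehicle blood, with 1 vehicle pool far above the rest, and at 0.13, -0.17 and -0.36 in amiodarone blood. Where leaving out a pool or the second slide made the other probe the brighter one, the difference was negative. The call held in 0 of 6 fits without 1 pool. A further probe, laid in the opposite genomic order, stood at -2.01, -3.33 and -0.37 in vehicle and -1.64, -1.72 and -2.12 in amiodarone blood.

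In complex III the hinge protein Uqcrh fell and the core protein Uqcrc2 rose. Uqcrh was 9.01, 9.25 and 9.84 in vehicle and 7.65, 7.76 and 8.14 in amiodarone blood (-1.52 ± 0.26, adjusted p 0.00266). Uqcrc2 was 2.53, 2.50 and 2.09 against 3.03, 3.13 and 2.94 (0.66 ± 0.19, adjusted p 0.0179). Against the median of all genes, Uqcrh lay at -1.97 and Uqcrc2 at 0.21. Both sets of pools were apart. The other 5 members lay between -0.20 (Uqcrb) and 0.30 (Uqcrfs1), and cytochrome c (Cycs) at 0.22 ± 0.22, and none of these was called. The drug effect on Cycs in heart was read from a different probe. In blood that probe was 1.62, 1.15 and 1.74 in vehicle and 2.06, 2.14 and 2 in amiodarone pools, apart and higher with amiodarone. It was not tested on its own in blood. On the remaining Cycs probe the blood groups overlapped.

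In complex V, 2 members were higher and 3 lower of 15, which is 13.3 and 20% against 41.2 and 26.9% of all genes. The catalytic beta subunit Atp5b fell from 5.29, 5.32 and 5.57 to 3.87, 4.17 and 4.25 (-1.30 ± 0.19, 2.46-fold, adjusted p 0.00155). The membrane subunits Atp5j2 and Atp5l fell by 1.35 and 1.15. The gamma subunit Atp5c1 rose by 0.51 ± 0.18 and Atp5g3 by 0.55 ± 0.17, the latter past the threshold in 3 of 6 fits without 1 pool. Set against the median of all genes, Atp5c1 lay at only 0.06 and Atp5g3 at 0.09. On the same footing Atp5b lay at -1.75, Atp5j2 at -1.81 and Atp5l at -1.60. The alpha subunit Atp5a1, the partner of Atp5b, was 2.91, 2.65 and 2.23 in vehicle and 2.79, 3.26 and 2.82 in amiodarone blood, which overlap (0.36 ± 0.24, adjusted p 0.215). Atp5g1 and Atp5g2, at 0.54 ± 0.22 and 0.35 ± 0.20, were not called. Within an array, Atp5g1 minus Atp5g2 was -1.52, -1.61 and -1.49 in vehicle and -1.23, -1.44 and -1.38 in amiodarone blood, apart (exact permutation p 0.1).

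Among the members that are no subunits, Atp5s fell and Cox4nb rose in blood. Atp5s was -0.44, -0.70 and 0.94 in vehicle and -1.48, -2.20 and -1.71 in amiodarone blood (-1.73 ± 0.44, adjusted p 0.0110). Cox4nb was 1.63, 1.27 and 1.80 against 2.46, 2.28 and 2.40 (0.81 ± 0.20, adjusted p 0.00918), while its neighbour on chromosome 19, Cox4i1, fell. Atp5sl and Cox7a2l were within 0.12 of no change. Measured from the median of all genes, Atp5s lay at -2.18, Cox4nb at 0.36, Atp5sl at -0.51 and Cox7a2l at -0.57.

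**Figure D5:**
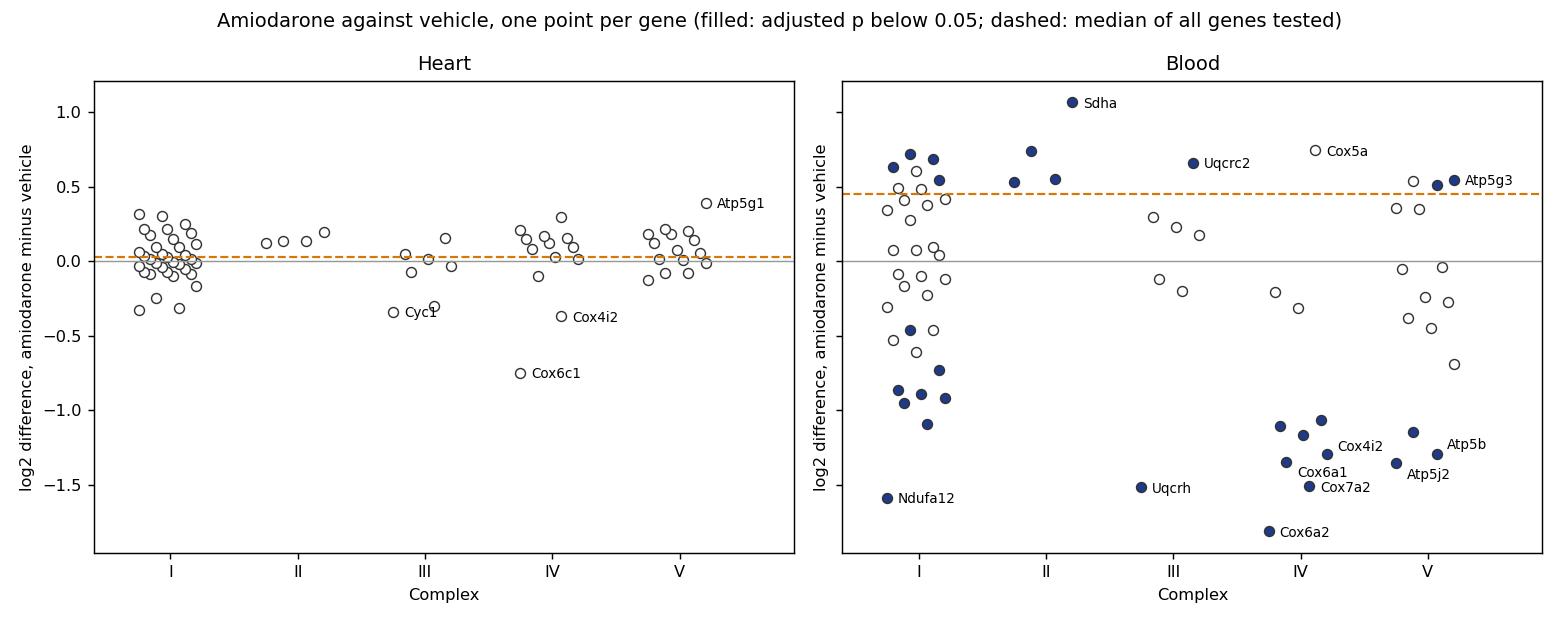
Log2 difference between amiodarone and vehicle (y axis) for each measured gene of complexes I to V (x axis), in heart (left) and blood (right); filled points passed an adjusted p of 0.05 and the dashed lines are the medians of all genes tested, 0.03 and 0.45. No heart point is filled, while blood points range from -1.81 (Cox6a2) to 1.07 (Sdha).

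Cell type markers moved with the blood groups, between which 41.2% of all genes were called higher and 26.9% lower. Of 15 red cell and reticulocyte markers 13 fell, with a median of -2.22, and their share of summed signal was 2.63 to 2.98% in vehicle and 0.96 to 1.55% in amiodarone blood. Of 13 neutrophil and monocyte markers 11 rose (median 1.93), as did 13 of 16 T and natural killer cell markers (0.90) and 6 of 9 platelet markers (0.93), while the median of 7 B cell markers was 0.15. Their part in the changes of the respiratory chain genes was not tested. Other mitochondrial genes lay nearer the run of genes: relative to the median of all genes, the median was 0.18 for 17 genes of the citric acid cycle, 0.27 for 11 assembly factors, 0.21 for 15 regulators of mitochondrial gene expression, 0.16 for 17 carriers and porins of the mitochondrial membranes, -0.12 for 9 genes of coenzyme Q synthesis and -0.02 for 48 of the mitochondrial ribosome. In the citric acid cycle list 10 of 17 were higher and 3 lower, and in the mitochondrial ribosome 22 and 4 of 48, against 41.2 and 26.9% of all genes.

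The blood calls rest on few arrays. Without amiodarone blood pool 1, 16 members were called in place of 32, of which 3 were higher, against 53.6% of all genes in that fit. On the first slide alone, with 2 pools a group, 27 were called (57.8% of all genes), and on all arrays with slide as a block 38 (70.5%). On the second slide, with 1 pool a group and no test, complex IV again lay 1.59 below the median of all genes and complex II 0.14 above it. With normexp background correction 1 member was called in blood, of 8.22% of all genes, and complex IV lay 1.22 below the median.

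The drug effects of heart and blood were compared in 1 fit of all 12 arrays. The difference, heart minus blood, passed the test in 22 of 74 members (18 positive and 4 negative) against 51.5% of all 13024 genes, 18.8% positive and 32.7% negative. The median over all genes was -0.43 and over the members 0.10. Of complex IV, 9 of 10 members were positive and 7 were called, namely the 7 that fell in blood, with Cox6a2 the highest at 2.11 ± 0.27 (adjusted p 0.000267). Relative to the median of all genes complex IV lay at 1.64 and complex II at -0.09. The split of 18 and 4 became 10 and 9 with array median scaling, 15 and 17 with quantile scaling, and 42 and 53 negative with none positive after spike-in scaling and with no scaling. In that order, these settings called 52.5, 54.7, 64.9 and 78.8% of all genes.

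Promoter sequence was set beside these results, as members of complex IV moved together in blood. By accession, symbol or synonym all 83 genes matched the RefSeq gene table, and 70 had a promoter of 300 bases around the gene's start in RefSeq's GRCr8 build. Letters of motifs of factors known to act on respiratory chain or muscle genes were searched on both strands. The GABP motif CCGGAAG stood in 21 of 70 members' promoters, 30%, and in 8.75% of all 33469. The NRF1 motif stood in 4 of 70 against 0.852%, the ERR motif TCAAGGTCA in 2 of 70 against 0.433%, a MEF2 motif, of which 2 spellings were searched, in 1 of 70 against 0.266%, and the E-box CAGCTG in 12 of 70 against 15.1%. The GABP motif stood in 6 of 18 promoters of members that fell in blood and in 5 of 11 of members that rose. A match is a description of letters, not a binding site.

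The promoters of both heart and muscle forms and of the general form Cox8a are shown, 5′ to 3′ on the gene's strand, with motif letters in capitals. They lie on the minus strand of GRCr8 at chr1:192219667-192219966 (Cox6a2), chr1:205408224-205408523 (Cox8b) and chr1:213833574-213833873 (Cox8a).
Cox6a2: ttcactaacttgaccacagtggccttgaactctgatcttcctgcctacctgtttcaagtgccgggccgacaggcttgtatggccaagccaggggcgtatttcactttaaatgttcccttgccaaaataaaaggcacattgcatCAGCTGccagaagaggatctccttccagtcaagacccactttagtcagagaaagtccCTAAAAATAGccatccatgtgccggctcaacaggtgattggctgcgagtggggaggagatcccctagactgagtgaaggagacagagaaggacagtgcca
Cox8b: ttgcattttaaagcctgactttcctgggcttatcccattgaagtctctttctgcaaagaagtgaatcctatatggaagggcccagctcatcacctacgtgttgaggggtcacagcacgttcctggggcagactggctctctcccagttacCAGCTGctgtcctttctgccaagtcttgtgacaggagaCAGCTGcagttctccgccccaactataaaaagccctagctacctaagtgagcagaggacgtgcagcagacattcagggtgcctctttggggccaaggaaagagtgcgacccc
Cox8a: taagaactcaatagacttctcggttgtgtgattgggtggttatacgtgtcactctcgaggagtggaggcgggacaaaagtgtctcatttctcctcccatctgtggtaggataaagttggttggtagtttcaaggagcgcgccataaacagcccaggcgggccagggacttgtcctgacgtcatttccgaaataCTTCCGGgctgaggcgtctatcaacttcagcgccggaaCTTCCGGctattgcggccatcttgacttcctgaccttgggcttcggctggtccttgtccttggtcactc
Cox6a2 held a MEF2 and an E-box motif and Cox8b 2 E-box motifs, with no GABP motif in either, and Cox8a held the reverse complement of the GABP motif in 2 places. The general form Cox4i1, not shown, held 2 GABP motifs and an E-box. The Cox8b probe used was not well above background on any blood array, while that of Cox6a2 was on all 6.

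Some members have a probe laid in the opposite genomic order, which reads the other strand. For Cox8b the probe used and such a probe share 21 bases as reverse complements, shown in capitals:
Cox8b, probe used: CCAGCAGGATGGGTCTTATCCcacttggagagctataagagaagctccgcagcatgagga
Cox8b, opposite order: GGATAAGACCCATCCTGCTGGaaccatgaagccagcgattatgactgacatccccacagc
The second lies at chr1:201057399-201057458 in rn4. It stood at 3.53, 2.74 and 3.19 in vehicle heart and 3.08, 3.44 and 3.23 in amiodarone heart, well above background on all 6 arrays, on none of the vehicle blood arrays and on 2 of the 3 amiodarone blood arrays. Levels of different probes are not comparable, and whether this signal comes from a transcript of the other strand was not tested.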

How the data were processed

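The deposited scanner files (Feature Extraction, per the file headers) hold 1 intensity per spot: the processed signal, which per the series text is detrended and background-subtracted, with both scans of each slide combined. Mean and local background intensities from the same files served the normexp alternative (offset 50), and the authors' deposited value table of normalized intensity, heart and blood normalized separately, by a method not given in the sources used here, another. Outlier-flagged spots were dropped, log2 values of repeated spots averaged per probe, and the 75th percentile of each array subtracted. The scanner's flag for a spot well above background is a score of 0 or 1 deposited in the same files. A gene was tested through its brightest probe well above background on all 3 arrays of a group, with limma 3.58.1 in R 4.3.3 (lmFit, eBayes, Benjamini-Hochberg over all genes, threshold 0.05). Heart and blood drug effects used 6 arrays each; the tissue comparison and the difference of the drug effects used 12. The scripts were checked on simulated data.

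Genes named with values are the isoform pairs of complex IV and the core subunits, up to 6 called rises and 6 falls per comparison (in heart the smallest p values), the extremes of each complex between tissues, members that are no subunits, and genes whose probes disagree; 1 gene under this rule is counted but not reported here by name. Members, lists and tests were chosen with earlier results of these data known. The tissue comparison shares its vehicle pools with the drug comparisons. Replicate numbers were checked for pairing. Deviations of pools numbered 1, 2 and 3 correlated at -0.17, -0.24 and 0.32 in heart and at 0.08, 0.17 and 0.31 in blood. The highest value in each tissue was that of the pools numbered 3, which lie on the second slide. Pools of the same number were not treated as pairs in the main fits, which leave out the slide.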

Additional observations from a re-analysis of the deposited data

Results flagged for a closer look

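Named members whose drug effect differed between heart and blood, by the test of the difference itself (limma, adjusted p below 0.05, heart minus blood on the log2 scale), are given as values. The difference was 2.11 for Cox6a2, 2.10 for Atp5s, 1.63 for Cox7a2, 1.63 for Ndufa12, 1.51 for Cox6a1 and 1.45 for Uqcrh. It was -1.0 for Ndufs8, -0.87 for Sdha and -0.54 for Atp5g3. These signs are those of all 12 arrays scaled to the 75th percentile. For Ndufs8, of which 2 overlapping probes disagreed in blood, the first slide alone gave 0.56 with the same scaling. With no scaling the value was -0.22 for Cox6a1, -0.09 for Cox7a2, -0.09 for Ndufa12 and -0.28 for Uqcrh. Atp5g3 was past the threshold in 4 of 12 fits without 1 pool.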

How the results depend on the processing

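The tissue comparison called 74 to 76 members in fits without 1 pool, against 75 to 82.6% of all genes. The heart comparison called 0 in each, against 2.92 to 7.38% of all genes. Array weights gave 4 heart calls, against 24.5% of all genes. In blood, normexp gave 1 call, no scaling 56, and fits without 1 pool 16 to 37 (16 without amiodarone pool 1). Of all genes, these fits called 8.22%, 77% and 53.6 to 68.5%. For the difference of the drug effects, normexp gave 1, spike-in scaling 42, no scaling 53, and fits without 1 pool 20 to 32. The shares of all genes called were 9.48%, 64.9%, 78.8% and 42.9 to 55.4%. The replicate block gave 0 calls in heart, 32 in blood, 24 for the difference and 75 between tissues, and changed none of these counts by over 1.5 times. With it, 4.28, 69.1, 50.9 and 81.8% of all genes were called. In blood, signs reversed with spike-in scaling for Cox4i1 (0.18), Cox8a (0.08), Ndufv1 (0.79), Uqcrc1 (1.13), Atp5sl (1.19) and Cox7a2l (1.13). With no scaling they reversed for Atp5b (0.29), Atp5j2 (0.23), Cox4i1 (0.52), Cox4i2 (0.29), Cox5b (1.27), Cox6a1 (0.24), Cox7a2 (0.08), Cox8a (0.42), Ndufs1 (1.06), Ndufv1 (1.12), Uqcrc1 (1.46), Uqcrh (0.07), Atp5sl (1.53) and Cox7a2l (1.47). Ndufs8 was -0.40 with normexp, -0.02 in the authors' table, and, where another probe was the brighter in some fits, -0.79 on the first slide and -1.15 to 0.63 without 1 pool. In the difference of the drug effects, no scaling gave -0.22 for Cox6a1, -0.09 for Cox7a2, -0.09 for Ndufa12 and -0.28 for Uqcrh, and the first slide gave 0.56 for Ndufs8. Between tissues, Cox8a was 0.60 with normexp, 0.05 with quantile scaling, 1.57 with spike-in, 1.90 with no scaling and 1.23 in the authors' table. Cox6a1 was 0.38, 0.72 and 0.26 in the last 3 of these and Ndufa1 1.03 with normexp, then 1.76, 2.09 and 1.44. Uqcrh was 1.36 with normexp, 0.94 with quantile scaling, then 2.09, 2.43 and 1.84. The authors' table normalized the tissues separately. The reversals with spike-in and no scaling follow from subtracting another number per array; the cause of those with quantile scaling, normexp and the authors' table, and of the normexp losses, was not tested. In blood the members' median relative to all genes was -0.56, -0.29 with the strict filter and 0.90 with no filter on dim probes, and that of complex IV -1.59, -1.34 and -0.04. Cox8a between tissues was past the threshold in 9 of 12 fits without 1 pool. Dim signal limits blood: 5 of the 79 members were not measured there.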
